A study of Danio rerio with 54 samples.

Results

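The first hour of rewarming was read from 6 of the 54 whole-larva RNA-seq samples in the series: 3 samples named re_1h and 3 named lc_12h. Zebrafish of the AB strain were raised at 28 °C to 96 h post fertilization (hpf), held at 10 °C, a lethal cold, for 12 h, and then either placed at 28 °C for 1 h (re_1h) or collected in the cold (lc_12h, 108 hpf). No transgene or mutation is named for them, each sample was total RNA of whole larvae, and any dead fish were removed at collection. Untreated larvae kept at 28 °C to 108 hpf (ctrl_108hpf, 3 samples) and larvae rewarmed for 2 h (re_2h, 3 samples) are used below to place the levels. The medium took about 1 h to warm to 28 °C, so the re_1h larvae had met a rising temperature for most of that time. The re_1h larvae were also 1 h older than the lc_12h larvae, no untreated group has the age of re_1h, and the lighting at collection is not given in the sources used here: rewarming, handling and time of day cannot be told apart.

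Cold slows transcription, translation and RNA decay, and an ectothermic larva that is warmed again takes them up again. The messages that respond first are typically those of immediate early transcription factors, inflammatory cytokines and feedback inhibitors, because their genes need no new protein and their mRNAs are short-lived. In zebrafish the circadian clock runs in most tissues of the body and is set by light and by temperature, and heat shock genes answer to a rise in temperature above that to which the fish had been acclimated. Each level below is in TPM, a relative transcript abundance corrected for transcript length. Each log2 fold change is on the log2(TPM + 1) scale with its standard error (SE), re_1h over lc_12h. A gene was called when this fold was at least 1.5 and limma's Benjamini-Hochberg adjusted p was at most 0.05.

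TPM values summed to between 998994 and 999360 in the 6 samples, with 23169 to 23389 genes at 1 TPM or more and 10.9% to 11.5% of all TPM in the 10 most abundant genes. The table holds no read counts, so the depth is unknown here. Of 56 markers of 12 larval tissues and cell types, 2 were called, mmp13a higher and gap43, a growth cone gene of neurons, lower. Of all genes tested 16.8% were called. At an adjusted limma p of at most 0.05 and any fold, 4 of 5 epidermis, 3 of 5 skeletal muscle and 3 of 5 neuron markers were lower and none higher. At that threshold 3 of 4 exocrine pancreas markers were higher and none lower, with fewer in the other sets. After median-of-ratios rescaling krt4 (-0.60) and col2a1a (-0.62) were called lower as well. The gap43 call was lost without re_1h replicate 1 (log2 fold change -0.57) or lc_12h replicate 2 (-0.58). Each of the 56 markers was detected in both groups, with macrophage markers the lowest as a set.

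A large part of the transcriptome moved within the hour, and mostly upward. Of 25387 expressed genes 3113 were higher in re_1h larvae and 1155 were lower, which is 12.3% and 4.55% of the genes tested, or 16.8% in all. The genes that rose held 54834 to 56704 TPM in the re_1h samples, against 27114 to 28524 TPM in the lc_12h samples, and the genes that fell held 15072 to 15467 TPM in re_1h and 29893 to 30827 TPM in lc_12h. The median gene called higher stood at 10.3 TPM in re_1h, 4.79 TPM in lc_12h and 7.10 TPM in ctrl_108hpf larvae. The median gene called lower stood at 3.96 TPM in re_1h, 8.17 TPM in lc_12h and 5.61 TPM in ctrl_108hpf larvae. A fold of at least 2 was reached by 981 of the genes that rose and 280 of those that fell, a fold of at least 8 by 11 and 14. Between the groups the 3 samples did not overlap for 3061 of the genes called higher and 1098 of those called lower, where 31.1% of all genes tested lay wholly above and 20.6% wholly below. The split between the directions depended on the scaling, since after median-of-ratios rescaling 2509 genes were higher and 1616 lower, and after quantile normalization 2271 and 1594.

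**Figure D1:**
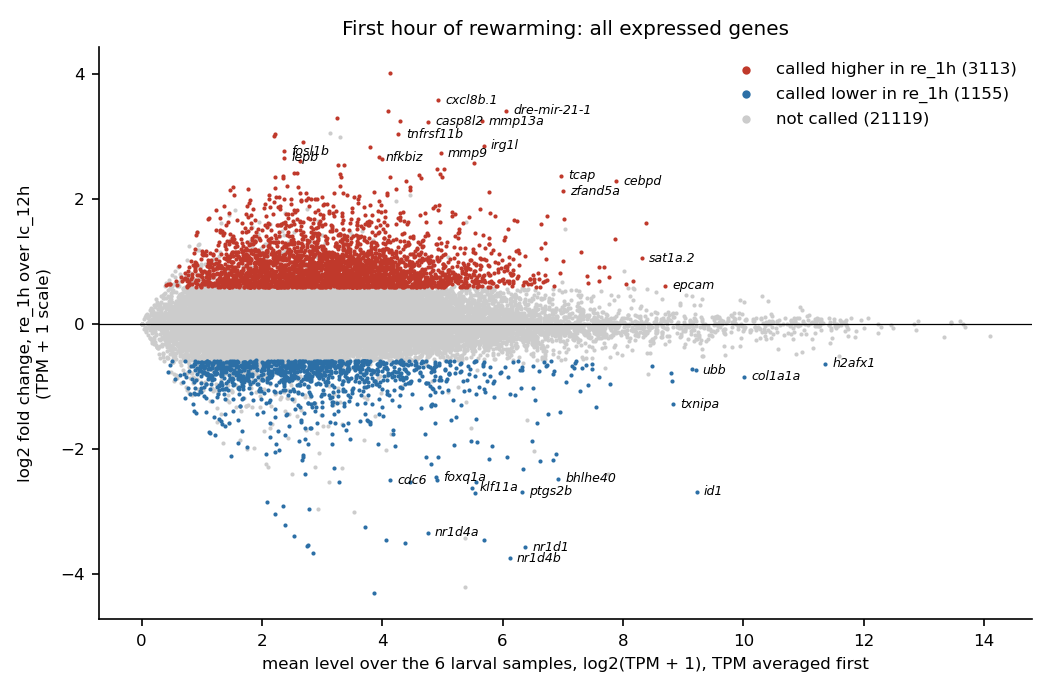
Log2 fold change of every expressed gene, re_1h over lc_12h (vertical), against its mean level over the 6 samples (horizontal, log2 scale). Red points are the 3113 genes called higher in re_1h, blue points the 1155 called lower and grey points the genes not called. The named genes are among those with the largest folds or TPM differences, and id1 is the most abundant of the 12 genes with the largest fall.

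The 12 genes with the largest rise and the 12 with the largest fall were taken from genes that reached a mean of 5 TPM. Only genes whose groups were apart and whose symbol is no clone name were taken. Those with the largest rise included inflammatory signals, a decoy receptor gene (tnfrsf11b), a caspase-like gene (casp8l2) and matrix enzymes. Those with the largest fall included transcription factors of the clock and KLF families. The matrix proteases are described first. mmp13a, a collagenase, stood at 97.2, 83.8 and 88.9 TPM in re_1h larvae, against 6.94, 8.92 and 10.1 TPM in lc_12h larvae (log2 fold change 3.25 ± 0.53, adjusted p = 3.11e-06). mmp9, a gelatinase, was at 53.1, 53.8 and 53.4 TPM in re_1h and at 7.48, 6.82 and 7.20 TPM in lc_12h (2.74 ± 0.37, adjusted p = 8.39e-08). All re_1h values of both enzymes lay well above the highest lc_12h value. cd44a, a hyaluronan receptor, followed with 17.9, 16.5 and 12.5 TPM in re_1h and 1.81, 2.14 and 2.82 TPM in lc_12h (2.35 ± 0.18, adjusted p = 8.39e-14).

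Of the 32 expressed genes on the list of matrix proteases and their inhibitors, 6 rose and 2 fell (18.8% and 6.25%, beside 12.3% and 4.55% of all genes). The median log2 fold change was 0.17 beside 0.04 over all genes. Besides the enzymes, timp2b, an inhibitor of them, rose (45.1 ± 2.80 TPM in re_1h, 11.4 ± 0.79 TPM in lc_12h, SD, n = 3 each). The metalloproteinase genes adamts1 and adamts9 rose as well and mmp11b fell, while mmp2 did not pass the test at 83.8 TPM in re_1h and 98.6 TPM in lc_12h. f3b, tissue factor, the trigger of clotting, fell (13.2 TPM in re_1h, 29.8 TPM in lc_12h, log2 fold change -1.11 ± 0.13). The 5 epidermis markers, keratins among them, summed to 8190 to 8680 TPM in re_1h and 10400 to 11600 TPM in lc_12h with none called. After median-of-ratios rescaling the keratin krt4 was called lower (log2 fold change -0.60, against -0.51 without it). The surface epithelial adhesion gene epcam was higher (515, 492 and 496 TPM in re_1h, 317, 320 and 347 TPM in lc_12h). The epcam call was lost with median-of-ratios rescaling (log2 fold change 0.51, against 0.61 without it). The part of tissue make-up in these values was not tested. In whole larvae a change in the number of cells of a type and a change of RNA per cell cannot be told apart.

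**Figure D2:**
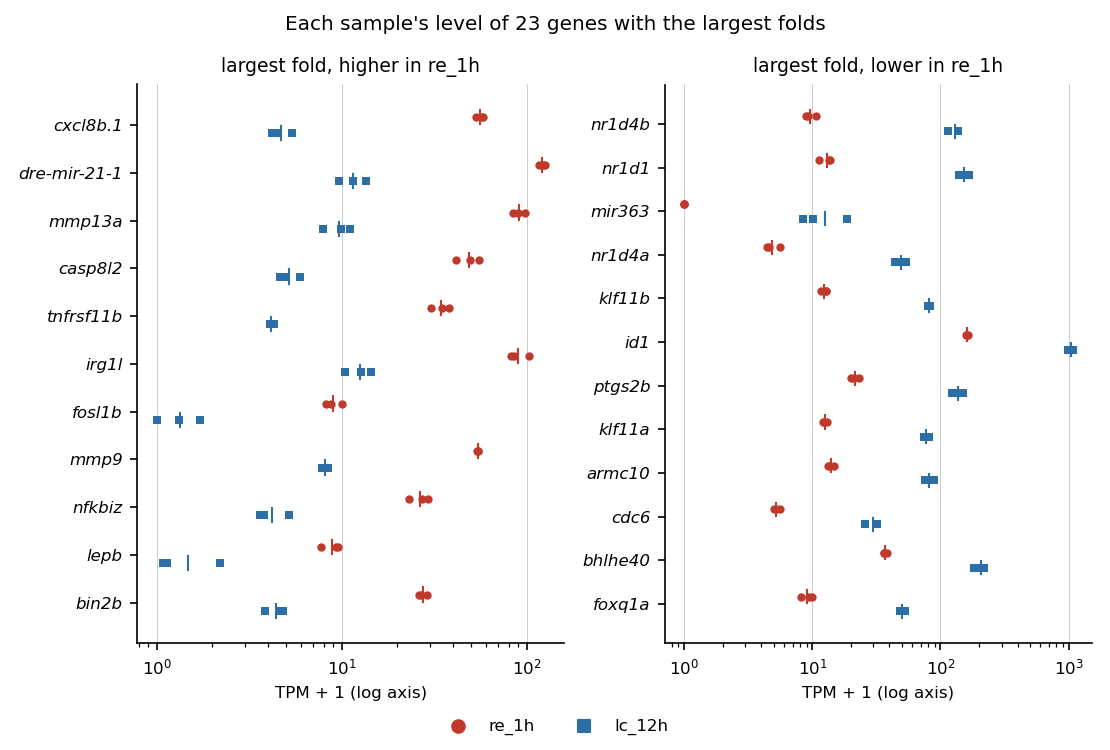
TPM + 1 on a log axis for 11 of the 12 genes with the largest rise (left) and the 12 with the largest fall (right), with a point for each sample (red circles re_1h, blue squares lc_12h) and a bar at the group mean. Genes were picked only where the 3 samples of the groups are apart, so this holds for all 23 shown by the choice itself. mir363 is listed at 0 in all re_1h samples and has no mean bar there.

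The list of cytokines and chemokines, which also holds prostaglandin enzymes, divided into a set that rose in the hour and an enzyme that fell steeply. Of its 25 expressed genes 9 rose and 2 fell (36% and 8%, beside 12.3% and 4.55% of all genes), with a median log2 fold change of 0.29. The interleukin 11 paralogs, ligands of the gp130 receptor family, were low in the cold and came up together: il11a was at 7.74, 7.14 and 7.59 TPM in re_1h, against 0.633, 0.598 and 0.786 TPM in lc_12h (2.35 ± 0.21, adjusted p = 4.31e-12). il11b was at 7.55, 7.09 and 7.20 TPM in re_1h and 0.813, 1.49 and 0.959 TPM in lc_12h. Their ctrl_108hpf means were 0.591 TPM for il11a and 0.1499 TPM for il11b, so the level in re_1h was above that of untreated larvae (log2 fold change 2.49 and 2.86 over ctrl_108hpf, both called). The chemokine paralogs did not move alike. cxcl8b.1, a neutrophil attractant, had a log2 fold change of 3.58 ± 0.31, while cxcl8a stood at 10.1, 9.03 and 6.61 TPM in re_1h and at 10.9, 7.21 and 12.6 TPM in lc_12h (-0.22 ± 0.44, adjusted p = 0.733).

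ptgs2b, a cyclooxygenase 2 that makes prostaglandins, was at 22.3, 19.2 and 19.98 TPM in re_1h larvae, against 122, 141 and 149 TPM in lc_12h larvae (-2.68 ± 0.15, adjusted p = 6.33e-18). It had been at 2.15 TPM in ctrl_108hpf, so it remained above untreated larvae after the hour (2.77 over ctrl_108hpf). tnfb, a tumour necrosis factor, fell as well (1.95 TPM in re_1h, 4.56 TPM in lc_12h), but ptgs2a, the paralog of ptgs2b, had 26.8 TPM in re_1h and 35.01 TPM in lc_12h and did not pass the test. il1b had 6.74, 6.53 and 6.18 TPM in re_1h and 2.94, 4.08 and 4.98 TPM in lc_12h. Its samples did not overlap, yet it was not called (0.60 ± 0.61, adjusted p = 0.457). With only these 2 groups in the fit, in place of all 18, it was called at the same fold (adjusted p = 0.0242). The 5 neutrophil markers gave no common direction: lyz was at 92.0 TPM in re_1h and 103 TPM in lc_12h, mpx at 4.98 TPM in re_1h and 7.46 TPM in lc_12h, npsn at 18.6 TPM in re_1h and 27.5 TPM in lc_12h, lect2l at 31.7 TPM in re_1h and 23.2 TPM in lc_12h, and only mmp13a, which other cells also make, was called. The 5 macrophage markers summed to 19.9 to 23.6 TPM in re_1h and 23.1 to 25.5 TPM in lc_12h, with none called.

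Genes of the NF-kB pathway, the transcription factor system through which many of these cytokine genes are switched on, moved in both directions. Of 25 tested, 9 rose and 4 fell (36% and 16%, beside 12.3% and 4.55% of all genes, median log2 fold change 0.51). Among the DNA-binding subunits rela rose (13.1, 12.3 and 13.1 TPM in re_1h, 5.41, 5.20 and 5.46 TPM in lc_12h, log2 fold change 1.12 ± 0.08) and nfkb1 rose with it (11.12 TPM in re_1h, 4.97 TPM in lc_12h), whereas rel fell (14.8, 15.4 and 15.5 TPM in re_1h, 41.1, 35.3 and 40.8 TPM in lc_12h, log2 fold change -1.30 ± 0.14) and nfkb2 fell (27.9 TPM in re_1h, 48.1 TPM in lc_12h). The inhibitors split in the same way. nfkbiz, a nuclear inhibitor-like cofactor that drives secondary inflammatory genes, rose to 22.1, 26.1 and 28.5 TPM in re_1h, against 2.80, 2.62 and 4.17 TPM in lc_12h (2.67 ± 0.16, adjusted p = 5.64e-17). tnfaip3, the ubiquitin-editing brake A20, fell (9.86 TPM in re_1h, 22.9 TPM in lc_12h, log2 fold change -1.14 ± 0.18), and the classical inhibitors nfkbiaa (102 TPM in re_1h, 140 TPM in lc_12h) and nfkbiab (129 TPM in re_1h, 188 TPM in lc_12h) did not pass the fold. The adaptor traf2b rose (21.2 TPM in re_1h, 7.10 TPM in lc_12h, log2 fold change 1.46 ± 0.07).

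Receptors and effectors of cell death rose more often than they fell, as did all genes tested. Of 27 genes for tumour necrosis factor receptors, caspases and their adaptors, 10 rose and 1 fell (37% and 3.7%, beside 12.3% and 4.55% of all genes). The decoy receptor tnfrsf11b (osteoprotegerin) gained the most after casp8l2, a caspase 8-like gene: log2 fold changes were 3.04 ± 0.14 and 3.24 ± 0.24. Further receptors followed, with tnfrsf1a at 23.5, 24.6 and 22.0 TPM in re_1h and 9.63, 9.56 and 10.4 TPM in lc_12h, and tnfrsf9a at 12.4 TPM in re_1h and 2.54 TPM in lc_12h. apaf1, the scaffold of the apoptosome, rose (23.1, 22.8 and 23.6 TPM in re_1h, 13.1, 12.1 and 12.6 TPM in lc_12h, log2 fold change 0.83 ± 0.07). casp3a, an executioner caspase, was not called and had 46.7 TPM in re_1h and 53.4 TPM in lc_12h (-0.19 ± 0.12, adjusted p = 0.191), and caspb, an inflammatory caspase, fell (27.5 TPM in re_1h, 45.5 TPM in lc_12h).

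In the BCL2 family, which sets whether mitochondria release death factors, 6 of 19 rose and 2 fell (31.6% and 10.5%, beside 12.3% and 4.55% of all genes). bmf2, a pro-death BH3-only gene, was at 12.3, 11.7 and 11.4 TPM in re_1h and 2.12, 2.67 and 2.47 TPM in lc_12h (1.91 ± 0.09, adjusted p = 1.30e-20), and baxa, a pore former, was at 50.6 TPM in re_1h and 32.3 TPM in lc_12h. The survival genes bcl2a (12.6 TPM in re_1h, 6.68 TPM in lc_12h) and mcl1b (103 TPM in re_1h, 45.1 TPM in lc_12h) rose too, so the family did not move to 1 side. mcl1a, the other mcl1 paralog, went the opposite way at 119, 104 and 123 TPM in re_1h, against 173, 180 and 181 TPM in lc_12h (-0.62 ± 0.06, adjusted p = 4.83e-12). Without re_1h replicate 2 its fold missed the threshold (-0.55), and baxa missed it after both kinds of rescaling (0.54).

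The gp130 and leptin branch of cytokine signalling runs through JAK kinases to the transcription factor STAT3 and is shut off by SOCS proteins. It was higher at genes for ligands, receptors and feedback and at the kinase jak1, but not at the kinase jak2a. Of 32 tested genes on this list, 15 rose and 3 fell (46.9% and 9.38%, beside 12.3% and 4.55% of all genes), with a median log2 fold change of 0.55. Among the ligands lepb, a leptin, was at 8.31, 6.74 and 8.53 TPM in re_1h, against 0.139, 0.0839 and 1.19 TPM in lc_12h (2.66 ± 0.36), and lepa at 4.64 TPM in re_1h and 0.567 TPM in lc_12h. Among the receptors il6st, which encodes gp130, was at 32.4, 33.1 and 31.2 TPM in re_1h and 14.8, 14.4 and 14.4 TPM in lc_12h (1.097 ± 0.07, adjusted p = 3.14e-17), and lepr at 13.9 TPM in re_1h and 5.11 TPM in lc_12h. The kinase jak1 stood at 28.0 TPM in re_1h and 12.7 TPM in lc_12h, whereas jak2a was not called. It had 14.5 TPM in re_1h and 13.7 TPM in lc_12h (0.08 ± 0.15, limma's adjusted p = 0.713). stat3 itself was at 25.6, 26.9 and 26.8 TPM in re_1h and 5.11, 5.42 and 6.12 TPM in lc_12h (2.07 ± 0.09, adjusted p = 4.05e-21), above its 13.3 TPM in ctrl_108hpf. The feedback inhibitor socs3b was at 75.5, 76.5 and 81.9 TPM in re_1h and 11.8, 11.5 and 13.4 TPM in lc_12h (2.58 ± 0.14, adjusted p = 4.57e-18), and socs3a at 85.1 TPM in re_1h and 24.2 TPM in lc_12h.

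cebpd, an acute-phase transcription factor induced through STAT3 in mammals, gained in the same hour, with 410, 381 and 383 TPM in re_1h against 76.8, 72.8 and 89.0 TPM in lc_12h (2.29 ± 0.12, adjusted p = 1.39e-18). The genes that fell on this list were the kinases pim3 (17.8 TPM in re_1h, 39.0 TPM in lc_12h) and pim1 (81.9 TPM in re_1h, 129 TPM in lc_12h) and the STAT5 feedback gene cish (22.8 TPM in re_1h, 42.9 TPM in lc_12h). Of 17 interferon-pathway genes 6 rose and none fell (35.3% and 0%, beside 12.3% and 4.55% of all genes). They were the transcription factors irf9 (16.7, 14.4 and 17.9 TPM in re_1h, 5.89, 5.90 and 4.58 TPM in lc_12h), irf1b, irf2, irf3 and irf7 and the ubiquitin-like isg15 (5.40 TPM in re_1h, 1.92 TPM in lc_12h). The complement and acute-phase list had few calls, with 1 of 39 higher and 2 lower (2.56% and 5.13%, beside 12.3% and 4.55% of all genes). Without re_1h replicate 2 there were 3 higher and 1 lower, without lc_12h replicate 3 there were 2 higher and 1 lower, and without lc_12h replicate 1 there was 1 lower. c7b, a component of the membrane attack complex, was the 1 that rose (16.5, 12.2 and 17.4 TPM in re_1h, 1.497, 1.49 and 2.43 TPM in lc_12h, log2 fold change 2.55 ± 0.44).

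**Figure D3:**
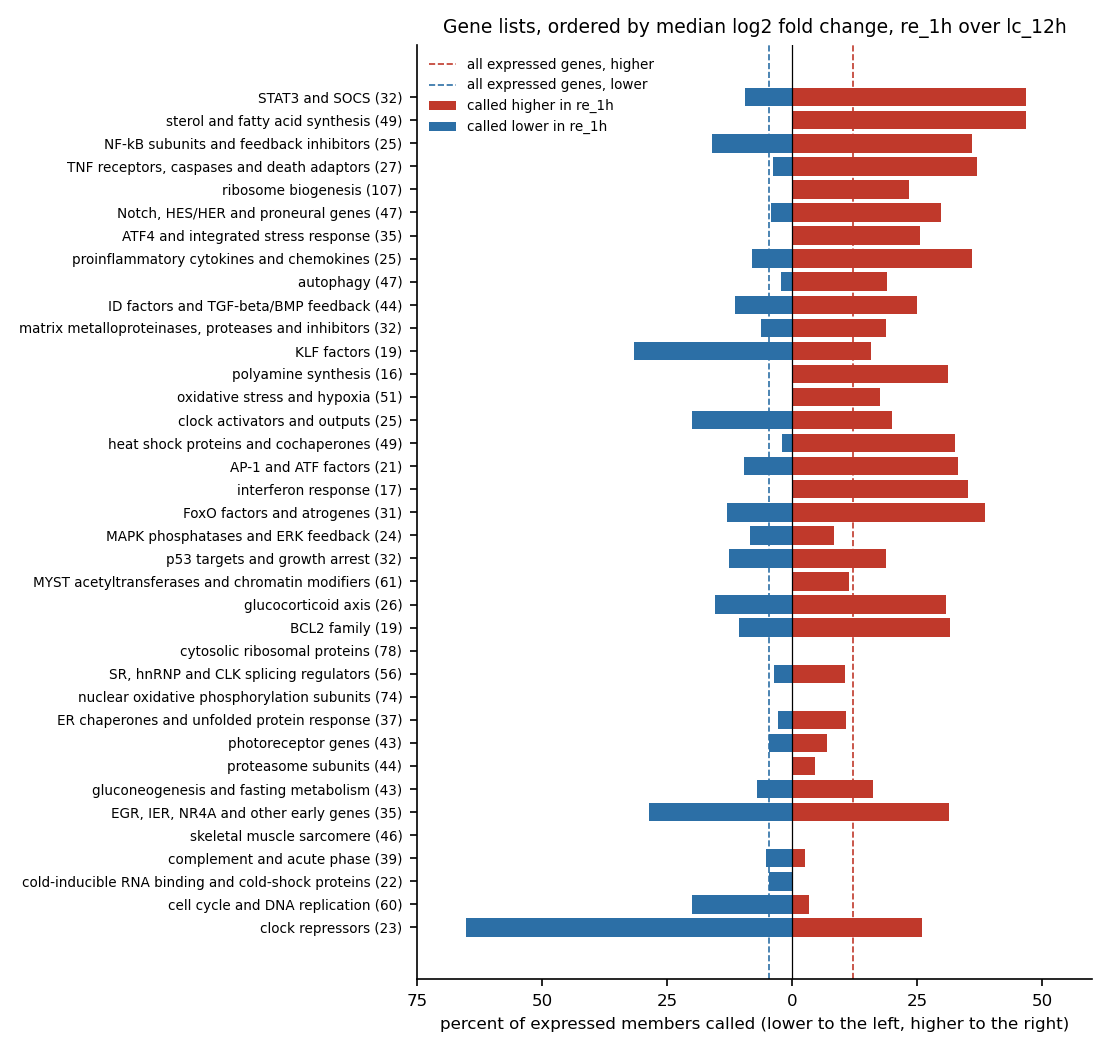
Percent of expressed members of each of 37 gene lists called higher (red, to the right) or lower (blue, to the left) in re_1h against lc_12h, ordered by median log2 fold change, with the number of tested members in brackets. Dashed lines mark the 12.3% higher and 4.55% lower over all expressed genes; STAT3 and SOCS and the sterol list have 46.9% called higher, and the clock repressors 65.2% called lower.

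Immediate early transcription factors were at high levels in the cold already and split in the hour. Of 21 AP-1 and ATF genes 7 rose and 2 fell (33.3% and 9.52%, beside 12.3% and 4.55% of all genes). jun was not called, with 160, 159 and 161 TPM in re_1h and 160, 176 and 186 TPM in lc_12h (-0.12 ± 0.05), against 60.8 TPM in ctrl_108hpf, and atf3 had 66.2 TPM in re_1h and 74.6 TPM in lc_12h. fosl1b, the FOS-related partner, came up to 8.99, 7.71 and 7.18 TPM in re_1h, where lc_12h samples had 0.704, 0.320 and 0.00 TPM. Its abundant paralog fosl1a rose as well (104 TPM in re_1h, 47.3 TPM in lc_12h, log2 fold change 1.13 ± 0.35, adjusted p = 0.00851), a call lost with a pseudocount of 0.1 TPM. fosab fell (65.6, 57.4 and 50.4 TPM in re_1h, 89.6, 95.9 and 105 TPM in lc_12h, log2 fold change -0.74 ± 0.26, adjusted p = 0.0204), a call lost without re_1h replicate 3 (-0.65) or lc_12h replicate 3 (-0.68). For junbb (128 TPM in re_1h, 203 TPM in lc_12h, log2 fold change -0.65 ± 0.12) it was lost without lc_12h replicate 3 (-0.58).

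The EGR, IER and related early genes were divided: 11 of 35 rose and 10 fell (31.4% and 28.6%, beside 12.3% and 4.55% of all genes), with a median of -0.07. egr1, the zinc finger induced by growth factors and activity, was at 24.2, 19.6 and 22.9 TPM in re_1h, against 81.1, 86.6 and 100.5 TPM in lc_12h (-1.96 ± 0.09, adjusted p = 2.48e-21). ccn1, a matricellular target of YAP and SRF, fell (17.02, 18.7 and 18.1 TPM in re_1h, 64.4, 63.6 and 78.9 TPM in lc_12h), while ccn1l1, its relative, rose (6.10, 8.36 and 9.07 TPM in re_1h, 1.08, 0.627 and 0.966 TPM in lc_12h, log2 fold change 2.22 ± 0.20). The mRNA-decay factors zfp36l1a (105, 103 and 106 TPM in re_1h, 46.1, 44.8 and 45.9 TPM in lc_12h) and zfp36l1b (60.7 TPM in re_1h, 37.3 TPM in lc_12h) also rose. Of 19 Krüppel-like factors 3 rose and 6 fell (15.8% and 31.6%, beside 12.3% and 4.55% of all genes). klf11a (11.4, 11.09 and 12.1 TPM in re_1h, 73.7, 75.3 and 79.9 TPM in lc_12h, log2 fold change -2.63 ± 0.06) and klf11b (11.9, 10.7 and 11.7 TPM in re_1h, 81.6, 79.5 and 79.3 TPM in lc_12h, log2 fold change -2.71 ± 0.08) fell together below their ctrl_108hpf levels of 19.03 TPM for klf11a and 17.04 TPM for klf11b. Of these 2 the difference from ctrl_108hpf was called for klf11a (-0.68) and not for klf11b (-0.54).

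The clock repressors were the list with the highest share of members called lower among the 37, at 65.2%. Of 23 tested genes on this list, 15 fell and 6 rose, with a median log2 fold change of -1.30. These are 65.2% and 26.1%, beside 4.55% lower and 12.3% higher of all genes. Whether each member, the cryptochromes among them, represses the circadian loop was not tested. The 5 Rev-erb genes called on the list were all lower: nr1d1, nr1d4a and nr1d4b by more than 8-fold, nr1d2a at 39.6, 42.1 and 39.1 TPM in re_1h against 181, 187 and 192 TPM in lc_12h (-2.19 ± 0.12), and nr1d2b at 108.9 TPM in re_1h and 174 TPM in lc_12h (-0.68 ± 0.09). Rev-erb proteins repress the positive arm of the clock. The E-box repressors fell with them, with bhlhe40 at 35.15, 37.0 and 35.21 TPM in re_1h against 183, 211 and 219 TPM in lc_12h (-2.48 ± 0.08) and ciarta, the repressor also called CHRONO, at 45.1, 41.2 and 46.6 TPM in re_1h against 183, 194 and 194 TPM in lc_12h (-2.08 ± 0.06). The D-box repressor nfil3-5 had 33.4, 34.01 and 35.3 TPM in re_1h and 143, 164 and 176 TPM in lc_12h.

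Period and cryptochrome genes did not follow one course. per1b was at 25.8, 25.8 and 25.9 TPM in re_1h against 132, 131 and 137 TPM in lc_12h (-2.33 ± 0.09, adjusted p = 1.54e-23), and per1a fell to 7.24 TPM in re_1h, against 27.08 TPM in lc_12h. per3 had 57.5 TPM in re_1h and 81.5 TPM in lc_12h and stayed under the fold threshold (-0.50 ± 0.10). per2, the period gene known in zebrafish for its induction by light, was higher (36.2, 36.9 and 40.9 TPM in re_1h, 20.7, 28.6 and 24.0 TPM in lc_12h, log2 fold change 0.63 ± 0.09). That call was lost without re_1h replicate 3 (0.57), without lc_12h replicate 1 (0.52) and after both rescalings (0.53). cry2 fell (44.5, 41.5 and 49.2 TPM in re_1h, 98.5, 102 and 102 TPM in lc_12h, log2 fold change -1.14 ± 0.10), but cry1b (23.0, 22.4 and 22.1 TPM in re_1h, 8.29, 10.6 and 8.91 TPM in lc_12h, log2 fold change 1.203 ± 0.10) and cry3b (41.7, 46.2 and 49.8 TPM in re_1h, 15.5, 11.9 and 15.06 TPM in lc_12h, log2 fold change 1.64 ± 0.11) rose, as did cry3a, cry4 and cry5.

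Activators and outputs of the clock were split, 5 higher and 5 lower of 25 (20% for each, beside 12.3% and 4.55% of all genes). The output factor tefa rose (93.1, 90.7 and 93.7 TPM in re_1h, 42.0, 43.1 and 45.7 TPM in lc_12h, log2 fold change 1.07 ± 0.07) and its relative dbpb fell (19.2 TPM in re_1h, 74.2 TPM in lc_12h, log2 fold change -1.90 ± 0.11). The ROR receptors, activators that bind the same sites as Rev-erb, were divided between rorab (34.1 TPM in re_1h, 20.1 TPM in lc_12h) and rorca (20.7, 18.5 and 17.7 TPM in re_1h, 80.5, 89.3 and 95.9 TPM in lc_12h, log2 fold change -2.16 ± 0.06). Against ctrl_108hpf larvae 14 of the 23 genes on the repressor list were still higher in re_1h and 2 were lower (8.12% and 11.4% of all genes tested). In lc_12h larvae 19 of the 23 were higher and 3 lower (5.77% and 14.1% of all genes tested). These comparisons share samples with that of re_1h and lc_12h. Between lc_12h and ctrl_108hpf the median gene lay at -0.16, and rescaling to a median near 0 turned 1466 genes higher and 3583 lower into 2212 and 2097, and quantile normalization gave 2057 and 2117.

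**Figure D4:**
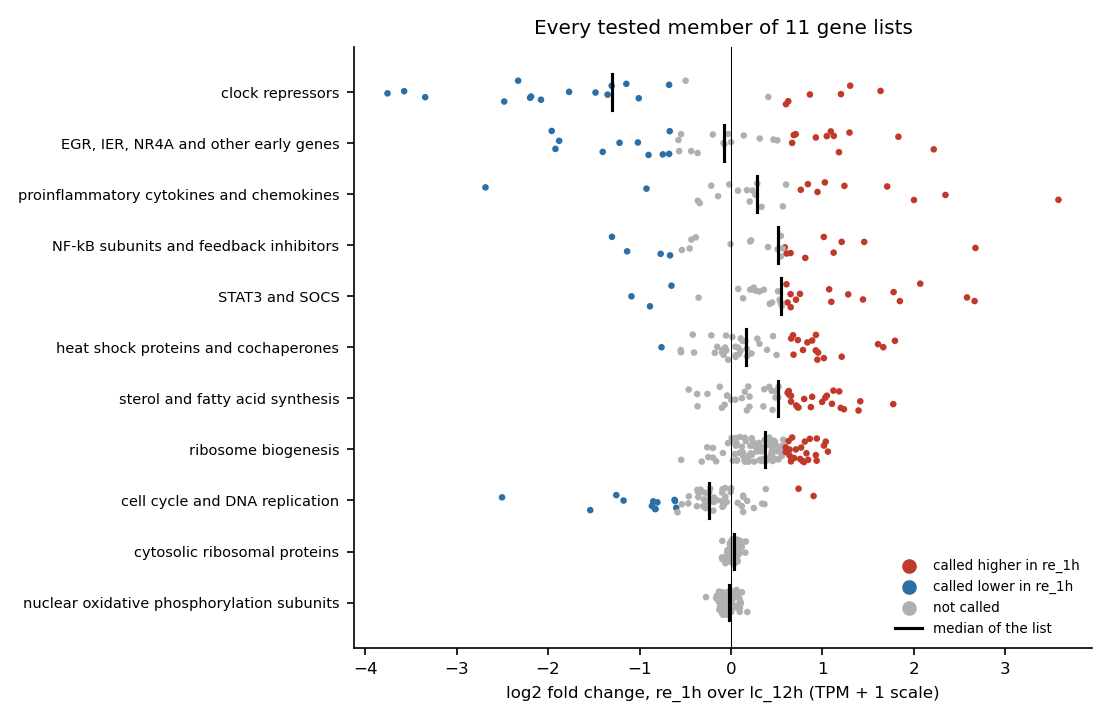
Log2 fold change, re_1h over lc_12h, of each tested member of 11 gene lists (a point per gene; red called higher, blue called lower, grey not called; black bar, median). Clock repressors spread from -3.76 to 1.64 around a median of -1.30, and ribosomal protein genes lie between -0.10 and 0.16.

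Inhibitors of differentiation, helix-loop-helix proteins induced by BMP signals, were divided. id1 was at 159, 157 and 164 TPM in re_1h, against 1041, 992 and 1075 TPM in lc_12h (-2.69 ± 0.04, adjusted p = 1.06e-35), and id3 was at 24.0, 24.3 and 24.1 TPM in re_1h and 105, 108.8 and 114 TPM in lc_12h (-2.13 ± 0.06). id1 was below its level in untreated larvae in re_1h (-1.22 against ctrl_108hpf, called). id2a did not follow (168 TPM in re_1h, 153 TPM in lc_12h). In the whole list of ID factors and TGF-beta or BMP feedback genes 11 of 44 rose, 6 after quantile normalization, and 5 fell. The main counts are 25% and 11.4%, beside 12.3% and 4.55% of all genes. Follistatin fsta, a binder of activin, rose (22.4 TPM in re_1h, 9.06 TPM in lc_12h) together with inhbaa, an activin subunit (8.45 TPM in re_1h, 3.04 TPM in lc_12h), and the BMP antagonist grem1a fell (1.25 TPM in re_1h, 6.42 TPM in lc_12h).

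Notch, HES and proneural genes were more often called higher than lower, as were all genes tested. In this list 14 of 47 were higher and 2 lower (29.8% and 4.26%, beside 12.3% and 4.55% of all genes), with a median of 0.32. Called lower were dld (log2 fold change -0.75) and hey1 (-0.87). sox4a was at 157, 168 and 163 TPM in re_1h, against 45.8, 49.2 and 49.3 TPM in lc_12h (1.74 ± 0.05, adjusted p = 5.89e-27), and sox11a at 75.5, 78.6 and 76.5 TPM in re_1h against 30.1, 33.0 and 30.1 TPM in lc_12h. ascl1b, a proneural factor, was at 12.4, 13.9 and 10.98 TPM in re_1h and 3.13, 2.60 and 2.73 TPM in lc_12h (1.81 ± 0.10), close to the 13.4 TPM of ctrl_108hpf. Against ctrl_108hpf larvae 8 of the 47 were lower and 1 higher in re_1h (11.4% and 8.12% of all genes tested), and 20 lower and 3 higher in lc_12h (14.1% and 5.77% of all genes, a split that moved with the scaling as given above). The neuron markers elavl3 (97.9 TPM in re_1h, 95.4 TPM in lc_12h) and snap25a (146 TPM in re_1h, 145 TPM in lc_12h) did not pass the test. Of 2 further genes that the study singled out, ppp3cca, a calcineurin catalytic subunit, had 18.8, 20.1 and 20.6 TPM in re_1h and 5.77, 5.64 and 5.48 TPM in lc_12h (1.65 ± 0.07), and snx1b, a sorting nexin, had 19.2 TPM in re_1h and 8.23 TPM in lc_12h (1.13 ± 0.07).

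Of 49 tested genes for heat shock proteins and cochaperones 16 rose and 1 fell (32.7% and 2.04%, beside 12.3% and 4.55% of all genes), with a median of 0.16. hsf1, the master transcription factor of the response, was at 21.6, 21.8 and 20.8 TPM in re_1h, against 9.40, 10.5 and 10.5 TPM in lc_12h (1.02 ± 0.07, adjusted p = 3.15e-15). Inducible chaperones followed, with hspb9 at 142, 146 and 156 TPM in re_1h and 35.9, 49.7 and 61.5 TPM in lc_12h (1.61 ± 0.18), and bag3, their cochaperone, at 19.6 TPM in re_1h and 9.87 TPM in lc_12h. hsp70.3 was at 112, 102 and 115 TPM in re_1h and 40.3, 27.08 and 35.6 TPM in lc_12h (1.67 ± 0.26). hsp70.3 belongs to a group of near-identical copies with hsp70.1, hsp70.2 and hsp70l, among which reads may have been divided arbitrarily; the log2 fold changes were 0.68 for hsp70.1, 1.21 for hsp70.2 and 0.73 for hsp70l. The hsp70.1 call was lost without re_1h replicate 3 (adjusted p = 0.0806), lc_12h replicate 2 (0.0765) or lc_12h replicate 3 (0.0708). hsp90ab1, an abundant constitutive chaperone, did not pass the test (1914, 1847 and 1923 TPM in re_1h, 1906, 1889 and 1702 TPM in lc_12h, log2 fold change 0.05 ± 0.06). Of 37 endoplasmic reticulum chaperone and unfolded protein response genes 4 were higher and 1 lower (10.8% and 2.7%, under the 12.3% and 4.55% of all genes). The 4 became 2 after either rescaling and without re_1h replicate 1, re_1h replicate 3 or lc_12h replicate 2, and the 1 lower became 0 in the last case. The 1 called lower was creb3l1 (-0.84), a call lost without re_1h replicate 2 (-0.71) or lc_12h replicate 2 (-0.69). hspa5 had 209 TPM in re_1h and 296 TPM in lc_12h (-0.50 ± 0.06) and was not called.

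The integrated stress response list had 9 of 35 higher and none lower (25.7% and 0%, beside 12.3% and 4.55% of all genes). At an adjusted limma p of at most 0.05 and any fold 19 were higher and 8 lower, where 6954 of all 25387 genes were higher and 4185 lower. sesn2, a sestrin that restrains mTORC1, was at 22.5, 24.1 and 25.3 TPM in re_1h against 8.30, 8.52 and 8.36 TPM in lc_12h (1.41 ± 0.11). atf4a, the transcription factor of this response, had 309 TPM in re_1h and 392.3 TPM in lc_12h (-0.34), a fall under the fold threshold, and was not called. Of 51 genes of oxidative stress and hypoxia 9 were called higher and none lower (17.6% and 0%, not far from the shares of all genes). At an adjusted p of at most 0.05 and any fold 22 were higher and 6 lower. The vasodilator peptide gene admb was among the 9 (19.5, 17.99 and 18.6 TPM in re_1h, 3.42, 4.07 and 3.77 TPM in lc_12h, log2 fold change 2.05 ± 0.18). The glutathione synthesis genes gclm (25.01 TPM in re_1h, 14.4 TPM in lc_12h) and gclc (21.2 TPM in re_1h, 13.6 TPM in lc_12h) rose too. The gclc call was lost after both rescalings (0.51 and 0.47) and without re_1h replicate 1 (0.58). Of 47 autophagy genes 9 rose and 1 fell (19.1% and 2.13%, not far from the shares of all genes). The cargo receptors nbr1b (30.3 TPM in re_1h, 13.4 TPM in lc_12h) and optn (34.6 TPM in re_1h, 14.2 TPM in lc_12h) were among those that rose.

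Of 49 tested genes of sterol and fatty acid synthesis 23 were called higher and none lower (46.9% and 0%, beside 12.3% and 4.55% of all genes, median 0.52). Over all 25387 expressed genes 6954 were higher and 4185 lower at an adjusted limma p of at most 0.05 and any fold. At that threshold 29 of the 49 genes were higher and 4 lower. SREBP proteins turn these genes on when membrane cholesterol runs low. srebf2, which encodes the sterol-sensing member, was at 67.1, 66.7 and 75.7 TPM in re_1h, against 33.3, 33.8 and 33.8 TPM in lc_12h (1.03 ± 0.07, adjusted p = 6.11e-15). Along the pathway hmgcs1 had 96.2 TPM in re_1h and 45.9 TPM in lc_12h, the rate-limiting reductase hmgcra 17.9 TPM in re_1h and 7.69 TPM in lc_12h, the squalene epoxidase sqlea 12.3 TPM in re_1h and 4.798 TPM in lc_12h, and msmo1, a demethylating oxidase late in the pathway, 36.9 TPM in re_1h and 13.4 TPM in lc_12h. The uptake receptor ldlrb was at 52.97, 45.2 and 53.5 TPM in re_1h and 22.8, 20.4 and 19.5 TPM in lc_12h (1.23 ± 0.09), where its paralog ldlra had 43.9 TPM in re_1h and 46.2 TPM in lc_12h and did not pass the test. The fatty acid activating enzyme acsl4b rose as well (29.1, 28.8 and 29.9 TPM in re_1h, 7.04, 7.97 and 8.60 TPM in lc_12h, log2 fold change 1.77 ± 0.09).

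Of 16 genes of polyamine metabolism 5 were called higher and none lower (31.2% and 0%, beside 12.3% and 4.55% of all genes). At an adjusted limma p of at most 0.05 and any fold 8 were higher and 2 lower. odc1, the rate-limiting decarboxylase, was at 252, 230 and 280 TPM in re_1h and 120, 143 and 142 TPM in lc_12h (0.90 ± 0.13), and sat1a.2, the catabolic acetyltransferase, at 444, 398 and 440 TPM in re_1h and 194, 219 and 203 TPM in lc_12h (1.06 ± 0.11). The ctrl_108hpf means were 27.9 TPM for odc1 and 76.6 TPM for sat1a.2. Of 43 genes of gluconeogenesis and fasting metabolism 7 rose and 3 fell (16.3% and 6.98%, beside 12.3% and 4.55% of all genes). angptl4, an inhibitor of lipoprotein lipase raised by fasting, fell (40.7, 34.1 and 38.5 TPM in re_1h, 140, 132 and 149 TPM in lc_12h, log2 fold change -1.87 ± 0.06), and so did gck, the liver glucokinase (1.06, 1.31 and 1.63 TPM in re_1h, 6.42, 9.49 and 5.47 TPM in lc_12h, log2 fold change -1.78 ± 0.30). In the FoxO list 12 of 31 rose and 4 fell (38.7% and 12.9%, beside 12.3% and 4.55% of all genes). foxo1a, foxo1b and foxo4 rose, the last at 31.8 TPM in re_1h and 15.103 TPM in lc_12h. The glucose-sensitive arrestin txnipa fell (259, 257 and 275 TPM in re_1h, 648, 640 and 643 TPM in lc_12h, log2 fold change -1.28 ± 0.05). In the glucocorticoid list 8 of 26 rose, 5 after median-of-ratios rescaling, and 4 fell. The main counts are 30.8% and 15.4%, beside 12.3% and 4.55% of all genes. The cortisol-inactivating enzyme hsd11b2 was higher (16.9 TPM in re_1h, 4.96 TPM in lc_12h) and the receptor target klf9 lower (12.9 TPM in re_1h, 26.6 TPM in lc_12h).

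Of 107 ribosome biogenesis genes 25 were called higher and none lower (23.4% and 0%, beside 12.3% and 4.55% of all genes), with a median of 0.37. At an adjusted limma p of at most 0.05 and any fold 74 were higher and 4 lower. After quantile normalization 14 were called higher. dkc1, the pseudouridine synthase of the nucleolus, was at 59.7, 56.8 and 56.4 TPM in re_1h against 26.7, 28.2 and 29.1 TPM in lc_12h (1.02 ± 0.07), and the helicase ddx18 had 30.7 TPM in re_1h and 16.9 TPM in lc_12h. The most abundant nucleolar gene ncl had 371 TPM in re_1h and 334 TPM in lc_12h and was not called. None of 78 cytosolic ribosomal protein genes was called by limma, and their log2 fold changes all lay between -0.10 and 0.16. At any fold, 7 were higher and none lower at an unadjusted p under 0.05, and 3 were higher and none lower at an adjusted p of at most 0.05. Over all 25387 expressed genes these limma thresholds gave 7710 higher and 4958 lower, and 6954 higher and 4185 lower.

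Of 60 genes of the cell cycle and DNA replication 12 fell and 2 rose (20% and 3.33%, beside 4.55% and 12.3% of all genes), with a median of -0.24. Among genes of origin licensing cdc6 was at 3.995, 4.54 and 4.15 TPM in re_1h, against 24.8, 30.9 and 30.5 TPM in lc_12h (-2.50 ± 0.15, adjusted p = 3.70e-17), cdt1 at 4.53 TPM in re_1h and 11.5 TPM in lc_12h, and its inhibitor gmnn at 4.29 TPM in re_1h and 11.7 TPM in lc_12h. The S-phase cyclin ccne2 had 5.14, 6.21 and 6.25 TPM in re_1h and 16.9, 21.2 and 18.8 TPM in lc_12h (-1.54 ± 0.12). Mitotic genes did not pass the test, among them plk1 (44.1 TPM in re_1h, 53.8 TPM in lc_12h) and ccnb1 (28.3 TPM in re_1h, 26.0 TPM in lc_12h). cdc6 in re_1h was near its 3.98 TPM of ctrl_108hpf. Of the most abundant genes that fell, h2afx1, a histone H2A.X, was at 2041, 2116 and 2020 TPM in re_1h and 3093, 3221 and 3300 TPM in lc_12h (-0.64 ± 0.05, a call lost after quantile normalization at -0.58), and col1a1a, a type I collagen chain, at 724, 743 and 752 TPM in re_1h and 1317, 1352 and 1330 TPM in lc_12h (-0.85 ± 0.07). The ubiquitin gene ubb was at 453, 426 and 443 TPM in re_1h and 723, 799 and 695 TPM in lc_12h (-0.74 ± 0.07).

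None of 46 sarcomere genes and none of 74 nuclear subunits of oxidative phosphorylation was called by limma, and their medians were -0.09 and -0.02. At an unadjusted limma p under 0.05 and any fold, 22 sarcomere genes were lower and none higher, and 3 oxidative phosphorylation genes were higher and 9 lower. Over all 25387 expressed genes 7710 were higher and 4958 lower at that threshold. tcap, the titin cap of the Z-disc that is not on the sarcomere list, stood out by its rise to 194, 215 and 217 TPM in re_1h, against 28.7, 46.8 and 45.5 TPM in lc_12h (2.38 ± 0.24, adjusted p = 1.10e-10). Proteasome subunits gave 2 of 44 higher and none lower (4.55% and 0%, beside 12.3% and 4.55% of all genes). At an adjusted p of at most 0.05 and any fold 8 were higher and 10 lower. The 2 called were the activators psme4a (12.7, 10.9 and 12.0 TPM in re_1h, 3.38, 3.29 and 4.09 TPM in lc_12h) and psme4b (23.1 TPM in re_1h, 11.2 TPM in lc_12h). zfand5a, a zinc finger protein that stimulates the proteasome in mammals, rose to 205, 196 and 220 TPM in re_1h, against 43.1, 46.4 and 50.6 TPM in lc_12h (2.13 ± 0.06). On the list of cold-inducible RNA-binding and cold-shock genes, top2b was the 1 of 22 called lower, and none was called higher. These are 4.55% and 0%, beside 4.55% lower and 12.3% higher of all genes. Most of the changes were small falls: 17 of the 22 log2 fold changes were negative, with a median of -0.14. At an adjusted p of at most 0.05 and any fold 11 were lower and 1 was higher, where 4185 of all 25387 genes were lower and 6954 higher. cirbpb was at 1450 TPM in re_1h and 1404 TPM in lc_12h and was not called. Splicing regulators gave 6 higher and 2 lower of 56 (10.7% and 3.57%, under the 12.3% and 4.55% of all genes). Among those called higher srsf1b was at 42.5, 44.9 and 41.4 TPM in re_1h and 18.9, 19.8 and 19.8 TPM in lc_12h (1.099 ± 0.05). Called lower were rbm25a (-1.08) and clk2a (-0.80), and the median of the splicing list was -0.007. Chromatin modifiers gave 7 higher and none lower of 61 (11.5% higher, near the share of all genes). At an adjusted p of at most 0.05 and any fold 18 of them were higher and 14 lower. The p53 target list had 6 higher and 4 lower of 32 (18.8% and 12.5%), and the photoreceptor list 3 higher and 2 lower of 43 (6.98% and 4.65%). The shares of all genes are 12.3% and 4.55%. The MAPK phosphatase and ERK feedback list had 2 higher and 2 lower of 24 (8.33% for each, beside 12.3% and 4.55% of all genes). It had 4 lower when lc_12h replicate 1 was left out. After either rescaling the p53 list had 3 higher.

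The row labelled dre-mir-21-1, a microRNA precursor locus, had 116, 125 and 121 TPM in re_1h and 8.64, 10.5 and 12.5 TPM in lc_12h (3.41 ± 0.20, adjusted p = 3.65e-17). Which RNA of the locus was counted is not given in the sources used here, and the mature microRNA was not measured. The row labelled mir363 is listed at 0 in all 3 re_1h samples and had 7.50, 9.20 and 17.8 TPM in lc_12h (-3.56 ± 1.23). It was at 0, 0 and 18.9 TPM in ctrl_108hpf and at 0, 0 and 9.45 TPM in re_2h, so values of 0 were not limited to re_1h. Its call was lost without lc_12h replicate 3 (adjusted p = 0.0625).

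Between re_2h and re_1h larvae 857 genes were higher and 767 lower (3.38% and 3.02% of those tested, 6.4% in all). Of the 23 genes on the clock repressor list 13 were lower in re_2h and none higher. Of the 35 early genes of the EGR and IER list 14 were lower and none higher. The genes lower in re_2h on these lists include some that had risen in the first hour, such as cry1b, csrnp1a and ccn1l1. The same re_1h samples enter both comparisons, which favours a change back of genes picked by their first-hour change. Heat shock genes did the opposite, with 13 of 49 higher and 1 lower: hsp70.3 reached 488, 507 and 493 TPM in re_2h, against 112, 102 and 115 TPM in re_1h (log2 fold change 2.17 for re_2h over re_1h). In the STAT3 and SOCS list 3 of 32 were higher and none lower, and stat3 had 47.8 TPM in re_2h and 26.4 TPM in re_1h. The sterol list turned, with 12 of 49 lower and none higher: ldlrb was at 18.4 TPM in re_2h and 50.6 TPM in re_1h. On the list of cytokines, chemokines and prostaglandin enzymes 6 of 25 were lower and 1 higher, with il11b at 1.88 TPM in re_2h and 7.28 TPM in re_1h. Of 107 ribosome biogenesis genes 11 were higher and none lower.

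**Figure D5:**
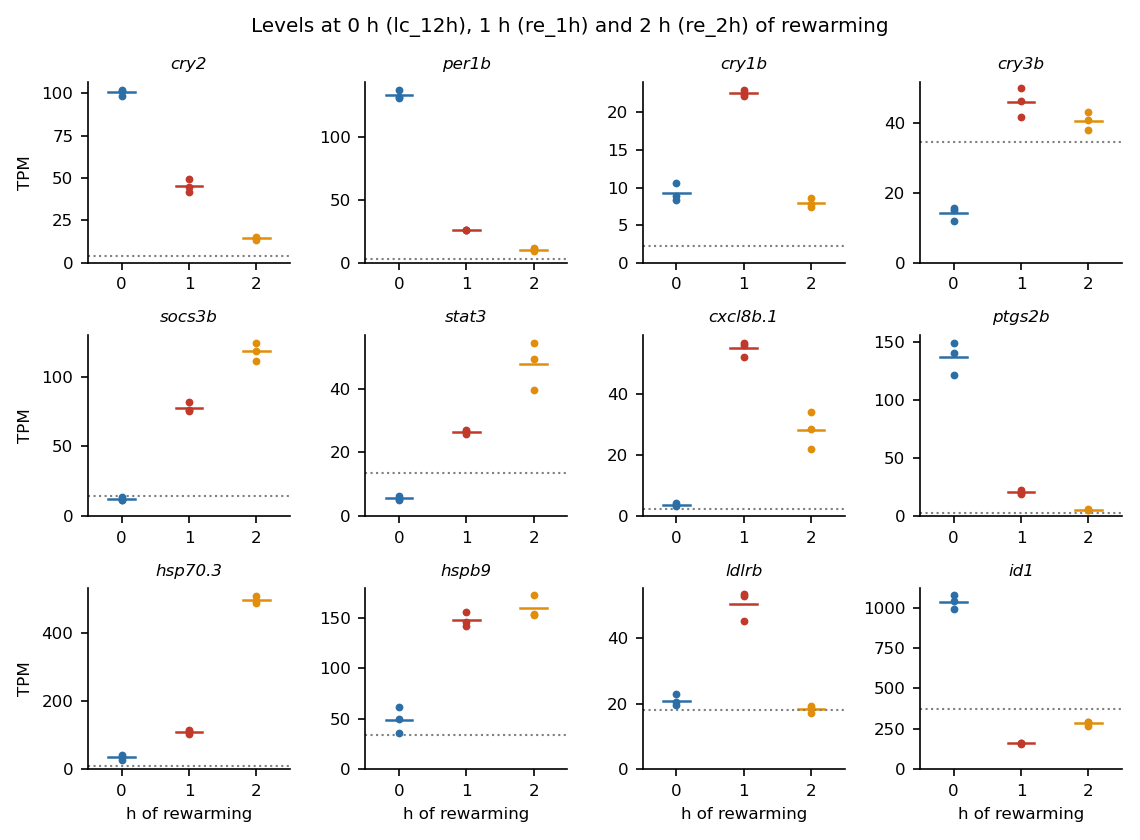
TPM of 12 genes at 0 h (lc_12h), 1 h (re_1h) and 2 h (re_2h) of rewarming, with a point per sample, a bar at the mean of 3 and a dotted line at the ctrl_108hpf mean. cry2, per1b and ptgs2b step down at each time, socs3b, stat3 and hsp70.3 step up, and cry1b, cxcl8b.1 and ldlrb have their highest level of these 3 times at 1 h.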

How the data were processed

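RNA-seq of whole zebrafish larvae was read from 1 gene table of 54 samples in 18 groups of 3. The deposited values are TPM. Per the study's methods the authors quantified reads with Salmon (0.13.1 in the submitters' processing notes) against Ensembl release 101 cDNA and summed transcripts to genes with tximport. TPM is corrected for transcript length and scaled to the same sum in every sample, so a rise of abundant genes lowers the rest, and no read count or depth can be had from it. No strand setting is given in the sources used here, and overlapping or near-identical genes may share reads.

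Genes with at least 1 TPM in every replicate of at least 1 group were kept (25387 of 30097). log2(TPM + 1) was fitted with limma 3.58.1 in R 4.3.3 as 18 group means over all samples (36 residual degrees of freedom, mean-variance trend), and re_1h was set against lc_12h, as were re_2h against re_1h and either cold or rewarmed larvae against ctrl_108hpf. P-values were adjusted by Benjamini-Hochberg over all genes kept, two-sided. A fold change on this scale understates that of low genes. All per-sample columns matched a sample by title. The fit was tested on simulated data. Figures were drawn with matplotlib 3.10.9.

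The samples and gene lists were chosen with earlier results of these data known. Of the 37 lists, 1493 of 1576 entries matched a row of the table and 1461 passed the filter. Lists are described by counts and medians, with no set test. Genes to name were drawn from the 12 genes in each direction with the largest fold and the 5 with the largest TPM difference (mean of 5 TPM or more where higher, samples of the groups apart, no clone name), up to 4 per list and direction with the smallest adjusted p, up to 2 abundant members per list not called, and 3 genes from the study. Not all of them are described, and a gene the rule names is not reported here. Further genes, such as cry2, per2, hsp70.3, hspb9, socs3a, hmgcs1, cxcl8a, il1b, gmnn and fosl1a, were chosen after their values were seen. The study's methods call the replicates biological. Whether they were separate clutches or dishes is not given in the sources used here, so each p-value rests on the spread between the samples as deposited. Replicates of a group differed from each other (SD of log2 differences 0.361 to 0.394 in re_1h and 0.367 to 0.378 in lc_12h), and none was a copy.

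Alternatives were pseudocounts of 0.1 and 0.5 TPM, no filter or a filter at 5 TPM, median-of-ratios rescaling, quantile normalization, only the compared groups in the fit, no trend, an adjusted p of 0.01, a fold of 2, the replicate number as a block, and each sample left out in turn. No genome or sequence table was used, so no motif was searched.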

Additional observations from a re-analysis of the deposited data

Results flagged for a closer look

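The direct test between the 2 rewarming times (limma, re_2h against re_1h, all 18 groups in the fit) marked 14 of the 209 named genes called in the first hour, at a fold of at least 2.5 between re_2h and re_1h. All log2 fold changes here are re_2h over re_1h with adjusted p from that fit. The genes were picked by their change in re_1h, and the same re_1h samples enter this test. That choice by itself favours a change back in re_2h, so these p-values are not independent of the selection.

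Of the genes lower in re_1h than in lc_12h, 4 were lower again in re_2h: nr1d4b (log2 fold change -1.83, adjusted p = 1.86e-12, 1.72 TPM in re_2h, 8.57 TPM in re_1h), ptgs2b (-1.75, adjusted p = 8.98e-12, 5.42 TPM in re_2h and 20.5 TPM in re_1h), rorcb (-1.66, adjusted p = 3.20e-18, 3.63 TPM in re_2h and 13.7 TPM in re_1h) and dusp5, a phosphatase that quenches ERK (-1.48, adjusted p = 6.80e-11, 7.96 TPM in re_2h and 23.9 TPM in re_1h). gck was the exception, with a log2 fold change of 3.29 (adjusted p = 2.53e-11) between 21.8 TPM in re_2h and 1.33 TPM in re_1h, past its 14.5 TPM in ctrl_108hpf.

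Of the genes higher in re_1h than in lc_12h, 8 were lower in re_2h: mmp13a (-1.72, adjusted p = 0.0131, 26.7 TPM in re_2h, 89.97 TPM in re_1h), il11b (-1.53, adjusted p = 6.40e-10), fosl1b (-1.50, adjusted p = 3.75e-06), ldlrb (-1.41, adjusted p = 6.34e-16), csrnp1a (-1.41, adjusted p = 6.09e-15), cry1b (-1.40, adjusted p = 1.16e-14), foxo1b (-1.40, adjusted p = 7.12e-15) and ccn1l1 (-1.34, adjusted p = 1.81e-06). timp2b was higher again in re_2h (1.42, adjusted p = 2.65e-09, 122 TPM in re_2h, 45.1 TPM in re_1h). The genes marked come from those the naming rule picks; hsp70.3, chosen after its values were seen, was also higher in re_2h than in re_1h (2.17).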

How the results depend on the processing

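Counts of genes called higher and lower in re_1h against lc_12h (3113 and 1155) stayed within 1.5 times under the other pseudocounts, filters, scalings and tests tried, except at a fold of at least 2 (981 and 280). At that fold re_2h against re_1h gave 145 higher and 176 lower, re_1h against ctrl_108hpf 854 and 641, and lc_12h against ctrl_108hpf 686 and 899. A pseudocount of 0.1 TPM gave 1336 genes higher in re_2h than in re_1h (857 with 1 TPM). For lc_12h against ctrl_108hpf median-of-ratios rescaling gave 2212 higher and 2097 lower and quantile normalization 2117 lower (1466 and 3583 without). The causes of these shifts were not tested. With each sample left out in turn the counts were 3048 to 3202 higher and 1098 to 1218 lower for re_1h against lc_12h, 786 to 1009 and 610 to 931 for re_2h against re_1h, 1981 to 2204 and 2854 to 2975 for re_1h against ctrl_108hpf, and 1412 to 1521 and 3439 to 3764 for lc_12h against ctrl_108hpf. No call of a named gene was reversed in direction. The direction that held more genes did change in comparisons other than re_1h against lc_12h. After median-of-ratios rescaling re_2h against re_1h gave 737 higher and 881 lower (857 and 767 without). For re_1h against ctrl_108hpf it gave 2623 and 2194 (2061 and 2884 without), and for lc_12h against ctrl_108hpf the counts given above. With certain samples left out, 1 member was called lower in lists that had none: integrated stress response, interferon, chromatin, oxidative stress, polyamine, proteasome and ribosome biogenesis, and 2 were lower, against 1, in the autophagy and heat shock lists. Of 341 named genes, rescaling by median of ratios ended 16 calls and added 6, quantile normalization ended 20, a fold of 2 ended 102, and leaving out 1 sample ended 4 to 6.

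The samples share a replicate number only: deviations from the group means of same-numbered re_1h and lc_12h samples correlated at 0.00222, 0.0313 and 0.00255. With the replicate number as a block 3111 genes were higher and 1150 lower in re_1h than in lc_12h, 857 and 767 for re_2h against re_1h, 2055 and 2881 for re_1h against ctrl_108hpf, and 1463 and 3581 for lc_12h against ctrl_108hpf. The block changed no call among 341 named genes. The table gives no counts, so depth, and with it the precision of low values, is unknown.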

Other observations

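Duplicated zebrafish genes did not always move together in the first hour. Among 2591 pairs of tested genes whose symbols differ only in a final a or b, both members were called in 160. In 113 of the 160 both were higher in re_1h, in 25 both were lower, and in 22 the members went opposite ways. Over all genes tested 12.3% were called higher and 4.55% lower, and whether these pair counts differ from independent calls was not tested. A shared symbol stem does not prove a recent duplication, and how reads were divided between similar copies was not tested.

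The widest gap was in lyve1, a hyaluronan receptor of lymphatic vessels: lyve1a had 8.99 TPM in re_1h and 1.58 TPM in lc_12h (log2 fold change 1.96), and lyve1b had 1.83 TPM in re_1h and 4.16 TPM in lc_12h (-0.90). foxg1b, a forebrain factor, had 25.5 TPM in re_1h and 54.9 TPM in lc_12h (-1.08), where foxg1a had 13.4 TPM in re_1h and 7.14 TPM in lc_12h (0.83). mid1ip1b, an activator of fatty acid synthesis, had 53.7 TPM in re_1h and 22.6 TPM in lc_12h (1.21), and mid1ip1a had 60.1 TPM in re_1h and 97.1 TPM in lc_12h (-0.68). txnipb rose (15.7 TPM in re_1h, 9.15 TPM in lc_12h) where txnipa fell. Among the oppositely called pairs that also stand in the lists were mcl1a and mcl1b, klf2a and klf2b, junba and junbb, and ahsa1a and ahsa1b. The klf2a call was lost after both rescalings (log2 fold change 0.56 and 0.49) and without re_1h replicate 3 (0.58). These pairs were chosen after their values were seen.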
